A study of Homo sapiens with 4 samples.

Results

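The 8 genes examined here are PAX8, WT1, EMX2, SOX17, MUC16, MSLN, FOLR1 and MECOM, protein-coding genes that mark the Müllerian lineage or ovarian tumours. They were chosen by name as known markers, with earlier results of these data known. They are 8 of the 20033 protein-coding genes annotated on the main chromosomes. RNA polymerase II (Pol II) occupancy was profiled by ChIP-seq, in which chromatin pulled down with a Pol II antibody is sequenced, in SK-OV-3, an established human ovarian cancer cell line. Control cells carried a lentiviral short hairpin against LacZ (shLacZ), a bacterial gene that human cells lack, and RRN3-silenced cells carried a hairpin against RRN3 (shRRN3), an initiation factor of RNA polymerase I. Per the methods, silenced lines were made as stable lines with a vector that carries puromycin resistance, and which of the study's RRN3 hairpins was used for this experiment is not given in the sources used here. Each hairpin had 1 Pol II library, represented by 1 list of peaks, and 1 input library (the 2 inputs were not used here). There was no replicate, so every difference below compares 2 libraries and has no test.

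The Müllerian ducts are the embryonic tubes that form the oviduct, the uterus and the upper vagina, and many ovarian carcinomas keep the transcription factors of that lineage. PAX8, a paired-box factor, and SOX17, a high-mobility-group factor, mark tubal and endometrial epithelium and are used to recognise tumours of that origin. WT1, a zinc finger factor, is a marker of serous ovarian carcinoma and of mesothelium, and EMX2 is a homeobox factor needed for the urogenital tract. MECOM encodes zinc finger factors of the EVI1 and MDS1-EVI1 forms from separate promoters, and lies in a region of the long arm of chromosome 3 that is often gained in ovarian tumours. MUC16 carries the serum antigen CA125, MSLN encodes mesothelin, a surface protein that binds it, and FOLR1 encodes folate receptor alpha, and these surface proteins are targets of diagnosis and therapy.

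A peak was counted for a gene when it had at least 1 bp in the annotated span (GENCODE release 44, GRCh38) or within 5 kb of it. PAX8, SOX17 and MECOM had peaks in both lists, which was 3 of 8 genes in shLacZ and 3 of 8 in shRRN3. WT1, EMX2, MUC16, MSLN and FOLR1 had 0 peaks in either list. Among all protein-coding genes, the share with a peak in this window was 14.5% in shLacZ and 39.0% in shRRN3, so the count of 3 of 8 was near the share of all genes in shRRN3. The median gene of the list had 0 peaks in each library, as did the median protein-coding gene. A window meets peaks more often when the gene is long. Of genes of 100 kb or more, 19.2% had a peak in shLacZ and 48.7% in shRRN3, and of shorter genes 13.4% and 36.8%. MECOM (580 kb) and MUC16 (162 kb) are the 2 long genes here, and the other 6 are shorter, from 2.96 kb for SOX17 to 62.9 kb for PAX8.

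**Figure D1:**
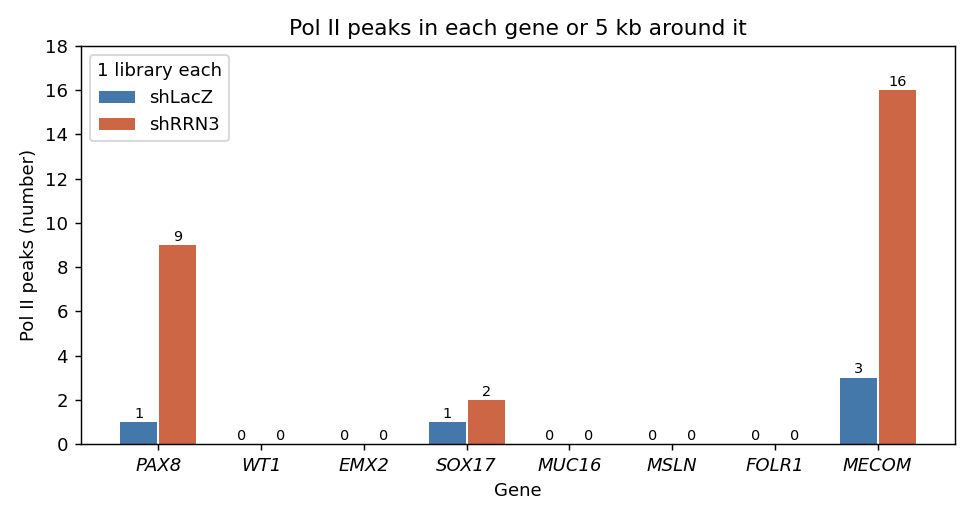
Number of Pol II peaks (y axis) in each gene or 5 kb around it (x axis), with a bar for each of the 2 libraries. PAX8, SOX17 and MECOM carry all of the 5 shLacZ peaks and all of the 27 shRRN3 peaks, and the other 5 genes are at 0 in both.

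The windows held 5 peaks in shLacZ and 27 in shRRN3, a ratio of 5.40, while the lists as a whole held 4014 and 14363 peaks, a ratio of 3.58. With shRRN3 reduced to its 3920 highest-scoring peaks, the size of the shLacZ list on the main chromosomes, the windows held 6 shRRN3 peaks (1 at PAX8 and 5 at MECOM), a ratio of 1.20. A shRRN3 peak overlapped 4 of the 5 found in shLacZ, beside 66.2% of all shLacZ peaks on the main chromosomes. Likewise 4 of the 27 found in shRRN3 had an overlapping shLacZ peak and 23 had none, beside 16.9% of all shRRN3 peaks with one. Those 23 had a median score at percentile 42.1 of the shRRN3 list, with scores from 50.8 to 153.22. The score of a peak is read here as −log10 of its p-value multiplied by 10, and its lowest listed value was about 50 in both libraries. Depth and enrichment of the libraries were not measured here, and their part in the larger number of shRRN3 peaks was not tested.

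The starts of the genes with and without peaks are shown first, since promoter Pol II is the form of the signal that assigns a peak to a gene most directly. Each sequence is read on the strand of its gene from GRCh38, ends at or before the first annotated base of the gene's outermost transcript at that place, and leaves out exons of protein-coding genes. Capitals mark GC boxes (GGGCGG) and CCAAT boxes (CCAAT) on either strand. PAX8 (chr2:113278922-113279171, minus strand) had a peak over its start in both libraries. WT1 (chr11:32435565-32435789, minus strand) and MUC16 (chr19:9010391-9010659, minus strand) had none. The long MECOM start (chr3:169663776-169663962, minus strand) had none within 1 kb, whereas the short MECOM start had a peak in both, and 47 intronic bases (chr3:169146676-169146722, minus strand) lie inside both of its peaks.

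PAX8 start: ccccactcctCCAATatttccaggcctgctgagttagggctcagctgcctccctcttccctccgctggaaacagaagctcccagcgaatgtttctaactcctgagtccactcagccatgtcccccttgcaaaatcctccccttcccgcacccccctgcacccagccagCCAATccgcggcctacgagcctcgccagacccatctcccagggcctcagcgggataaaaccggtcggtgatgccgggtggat
WT1 start: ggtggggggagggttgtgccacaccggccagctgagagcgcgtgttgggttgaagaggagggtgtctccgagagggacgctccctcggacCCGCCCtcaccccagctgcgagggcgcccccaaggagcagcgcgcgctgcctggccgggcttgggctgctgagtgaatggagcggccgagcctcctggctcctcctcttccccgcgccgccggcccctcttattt
MUC16 start: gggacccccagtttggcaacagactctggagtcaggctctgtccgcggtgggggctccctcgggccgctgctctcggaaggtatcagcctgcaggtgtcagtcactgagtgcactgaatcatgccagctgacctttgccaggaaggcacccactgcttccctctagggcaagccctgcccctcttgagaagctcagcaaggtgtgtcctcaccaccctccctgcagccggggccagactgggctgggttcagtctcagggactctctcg
MECOM long start: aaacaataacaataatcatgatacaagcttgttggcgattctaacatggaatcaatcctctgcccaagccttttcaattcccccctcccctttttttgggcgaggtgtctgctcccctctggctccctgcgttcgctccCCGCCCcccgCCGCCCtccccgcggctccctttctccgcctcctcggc
MECOM short start: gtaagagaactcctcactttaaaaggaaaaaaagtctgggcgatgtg

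The stretch before PAX8 held 2 CCAAT boxes and 0 GC boxes, that before WT1 held 1 GC box and 0 CCAAT boxes, and that before the long MECOM start held 2 GC boxes and 0 CCAAT boxes. The stretch before MUC16 held 0 of either. RefSeq also places a MUC16 start farther upstream (window 9065702 to 9066001), outside the GENCODE span, and that window held 1 GC box and 1 CCAAT box, with 0 peaks within 1 kb in either library. In RefSeq promoter windows of 300 bases (250 before and 50 after the start) of protein-coding genes, 56.8% held GGGCGG and 34.9% held CCAAT on either strand. TATAAA stood in 9.45% of such windows and in 0 of the 11 windows of PAX8, MECOM, EMX2, WT1 and MUC16, the 5 genes matched by symbol. The ETS core CCGGAA stood in 21.3% and likewise in 0 of the 11. These matches describe letters, not binding.

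PAX8 spans 113215997 to 113278921 on the minus strand of chromosome 2 and starts at 113278921. Its start carried the peak of the highest score among the 8 genes in each library. In shLacZ the peak (113278702 to 113279205, 504 bp) had a score of 147.99, at percentile 90.2 of the list, with its midpoint 33 bp before the start. In shRRN3 the peak (113278494 to 113279275, 782 bp) had a score of 354.44, at percentile 98.3, with its midpoint 37 bp after the start. The shRRN3 peak contained the whole shLacZ peak, and both covered annotated UTR next to the start (91 bp in shLacZ and 164 bp in shRRN3). This was the only PAX8 peak in shLacZ.

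In shRRN3 the PAX8 window held 9 peaks, a number reached by 102 of the 20033 protein-coding genes. Within introns, peaks of scores 59.38 and 50.81 lay 4.57 kb and 5.65 kb past the start. A peak of score 52.38 lay in an intron at 31.05 kb. A pair of peaks of scores 63.72 and 72.79 lay at 37.04 kb and 37.83 kb, over exons of PAX8 and beside the start of a shorter annotated transcript (113241779). A peak of score 69.84 lay at 58.72 kb over an exon near the end of the gene, where a retained-intron transcript starts (113220477). The remaining peaks, of scores 93.28 and 55.09, lay 3.04 kb and 3.92 kb past the PAX8 end. The former lay within the noncoding antisense gene PAX8-AS1 (113211421 to 113276581, plus strand), and the latter (113211167 to 113212072) lay over its start. All 8 peaks other than that at the start lacked a shLacZ peak, and each scored below 102.86, the lowest score among the 3920 highest-scoring shRRN3 peaks. PAX8-AS1 covers PAX8 from its end to within 2.34 kb of its start, and the assay does not separate strands, so the peaks inside the gene cannot be assigned to one or the other.

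**Figure D2:**
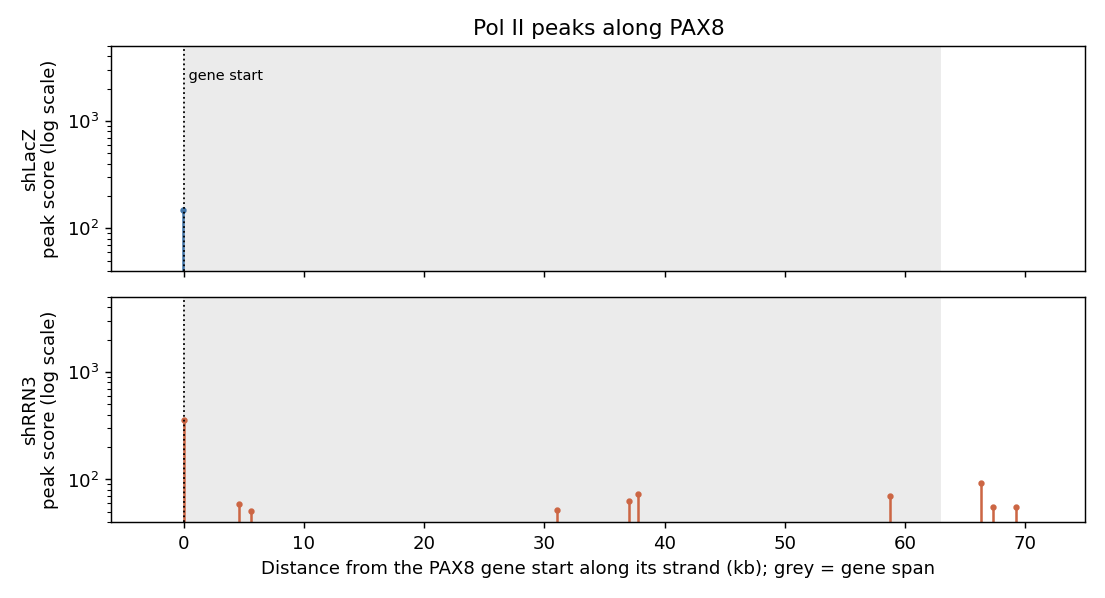
Pol II peaks along PAX8 in shLacZ (top) and shRRN3 (bottom), with the distance of each midpoint from the gene start in kb (x axis, along the strand of the gene) and the peak score on a log axis (y axis). The grey band is the gene span. The start peak is the tallest in both libraries, and the lower peaks within and past the gene are in shRRN3 alone.

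SOX17 spans 54457935 to 54460892 on the plus strand of chromosome 8, with 1 annotated transcript. In shLacZ a peak of 523 bp (54457764 to 54458286) and score 76.3, at percentile 63.0, had its midpoint 90 bp past the start. In shRRN3 a peak of 504 bp (54457691 to 54458194) and score 67.33, at percentile 40.8, had its midpoint 8 bp past the start. The peaks shared 431 bp, and each covered the 204 bp of annotated UTR at the 5′ end together with the first coding bases. Scores depend on the depth of each library, so their sizes are not compared between libraries. A second shRRN3 peak of score 53.45 (54458560 to 54458947) lay in the intron, 819 bp past the start, 274 bp from the shLacZ peak. No other peak lay within 168 kb of SOX17 in either library, and the 500 kb either side of its start held 2 peaks in shLacZ and 8 in shRRN3.

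MECOM spans 169083499 to 169663775 on the minus strand of chromosome 3. Its long transcripts (MDS1-EVI1 form, MANE Select transcript among them) start at 169663618 to 169663775, and a cluster of short transcripts (EVI1 form) starts at 169146288 to 169146675, 517 kb into the gene. The short start carried a peak in both libraries. In shLacZ it ran from 169146428 to 169146890 with a score of 64.08, at percentile 45.6. In shRRN3 it ran from 169146467 to 169146788 with a score of 63.25, at percentile 34.0. The shRRN3 peak lay wholly within the shLacZ peak, and their midpoints were 16 bp and 48 bp past the outermost start of that cluster (169146675). A further short transcript starts at 169147734, where no midpoint lay within 1 kb (the nearest were 1075 bp away in shLacZ and 1107 bp in shRRN3). Both scores were below 66.05, the median of the shLacZ list.

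No peak midpoint lay within 1 kb of a long MECOM start in either library. The nearest shRRN3 midpoint was 3586 bp before the gene start, in a peak of 1848 bp (169666437 to 169668284) and score 125.93 that overlapped no annotated gene. The nearest shLacZ midpoint to that start was 100028 bp away. MECOM therefore had no peak at its gene start by the definition used for all genes, and entered the count of genes with a peak at any annotated transcript start. By the gene start, 2 of 8 genes (PAX8 and SOX17) had a peak in each library, beside 7.56% of protein-coding genes in shLacZ and 23.7% in shRRN3. By any transcript start, 3 of 8 had one in each, beside 9.28% and 28.2%.

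The peaks of MECOM were gathered in the body of the short transcripts. The 64.2 kb from the gene end to the start of that further short transcript (169147734) held 3 shLacZ peaks and 13 shRRN3 peaks, or 0.467 and 2.02 peaks per 10 kb. The other 516 kb of the gene held 0 in shLacZ and 1 in shRRN3, a peak of score 54.23 (169349652 to 169349941) in an intron. Of the 13 shRRN3 peaks in the short body, 2 touched exons and 11 were intronic. The intronic peaks of the highest scores were 153.22 (169105028 to 169105522), 141.5 (169087614 to 169088624), 127.69 (169134303 to 169134900) and 119.63 (169108309 to 169108656). A peak near the gene end was in both libraries, at 169086373 to 169086858 with a score of 75.52 in shLacZ and at 169086011 to 169087083 with a score of 88.91 in shRRN3. Each covered mostly intron and touched 53 bp of exon, 15 bp of it coding. The third shLacZ peak (169109753 to 169109975, score 54.76) was intronic, and the nearest shRRN3 peak was 1097 bp away. With 16 peaks in its window in shRRN3, MECOM was among 16 protein-coding genes with at least as many, and with 3 in shLacZ among 206. These ranks use raw counts over genes of all lengths, and MECOM is 580 kb long. With shRRN3 reduced to its 3920 highest-scoring peaks, the MECOM window held 5.

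Just past the MECOM end lies a stretch of dense peaks. From 5 kb to 100 kb past the end, shLacZ had 60 peaks and shRRN3 had 33, a ratio of 0.550, and from 100 kb to 200 kb past it 28 and 15. The widths of peaks with midpoints in the nearer stretch added up to 64005 bp in shLacZ and 34880 bp in shRRN3. A single shLacZ peak of 35.8 kb made up much of the former, and part of it ran into the farther stretch. For the farther stretch the widths added up to 55395 bp and 73809 bp, the reverse of the order of the peak counts. Peaks in the first of these stretches numbered 6.32 per 10 kb in shLacZ and 3.47 in shRRN3. Their scores ran up to 3100 in both, which is also the highest score of each whole list. The equal top score therefore does not show equal signal. The noncoding gene LINC01997 lies in the nearer stretch and LINC02082 in the farther one. In MECOM and 5 kb around it the order of the peak counts was the opposite, with 3 in shLacZ and 16 in shRRN3, a ratio of 5.33, and inside the gene span there were 3 and 14. From 5 kb to 100 kb before the long start there were 0 and 2 peaks. Copy number and input signal were not measured here, and their part in the peaks in and beside MECOM was not tested.

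**Figure D3:**
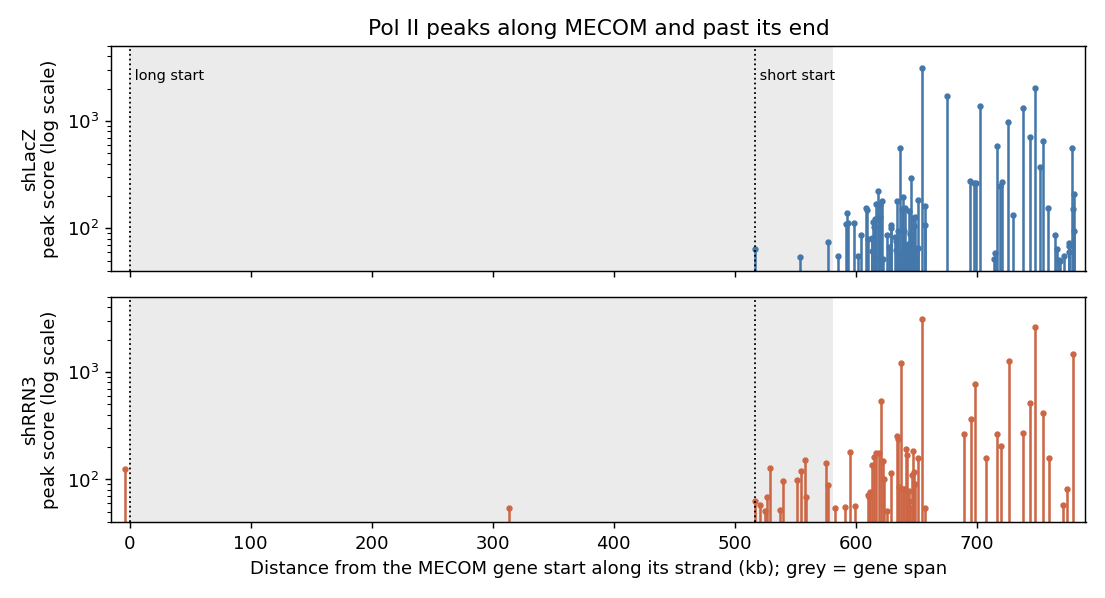
Pol II peaks along MECOM and past its end in shLacZ (top) and shRRN3 (bottom), with the distance of each midpoint from the gene start in kb (x axis, along the strand of the gene) and the peak score on a log axis (y axis). The grey band is the gene span and dotted lines mark the long and the short start. Peaks lie between the short start and the gene end and past it, with 1 shRRN3 peak in the other 516 kb of the gene and 1 just upstream of the gene.

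The 5 genes without a peak differed in how far away Pol II peaks were. For WT1 (chromosome 11, 32387775 to 32435564) the nearest peak was 394 kb away in shLacZ, in or within 1 kb of PRRG4. In shRRN3 it was 148 kb away, at EIF3M, a translation initiation factor gene. None of its 21 annotated transcript starts had a peak. The antisense gene WT1-AS begins at the same place, so the windows would have counted Pol II of either. For EMX2 (chromosome 10, 117542445 to 117549546), which overlaps the antisense gene EMX2OS, the nearest peak was 651 kb away in shLacZ and 167 kb away in shRRN3. Its surroundings were the emptiest of the list, with 0 shLacZ and 2 shRRN3 peaks within 500 kb either side of the start.

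The surface antigens had peaks nearer by, at other genes. For MUC16 (chromosome 19, 8848844 to 9010390) the nearest shLacZ peak was 285 kb away, in or within 1 kb of ZNF699. The nearest shRRN3 peak was 15.7 kb past the gene end, over the neighbouring starts of ZNF558 and MBD3L1 (8831956 to 8833109, score 53.73). This was the nearest peak outside any window of the genes without one, and it came inside at a window of 20 kb. For MSLN (chromosome 16, 760734 to 768865) the nearest peaks were 76.2 kb away in shLacZ, at JMJD8 and WDR24, and 32.1 kb away in shRRN3, past the end of CHTF18 and before the start of GNG13 (score 50.59). For FOLR1 (chromosome 11, 72189558 to 72196323) both libraries had their nearest peak at the same place, 42.9 kb away at the ends of INPPL1 and PHOX2A, with scores of 102.44 in shLacZ and 51.37 in shRRN3. The median protein-coding gene had 1 shLacZ and 7 shRRN3 peaks within 500 kb of its start, and the 5 genes without a peak had 0 to 3 and 2 to 8.

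**Figure D4:**
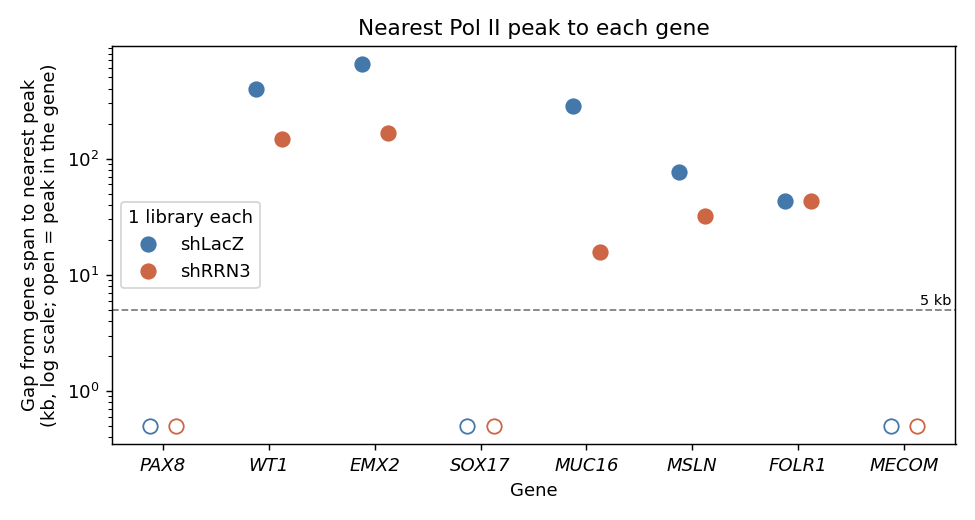
Gap in kb (y axis, log scale) between each gene span and the nearest Pol II peak of each library (x axis, genes). Open circles at the bottom stand for a peak inside the gene and have no gap to plot. The dashed line is the 5 kb limit, and the nearest filled point above it is the shRRN3 peak 15.7 kb from MUC16.

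Peaks at the edge of the windows were few. Outside a gene span but within 5 kb lay the 2 shRRN3 peaks past PAX8, the shRRN3 peak upstream of MECOM and a shRRN3 peak of score 54.17 lying 2.21 kb past the MECOM end. The first peaks beyond the limit were a shLacZ peak of score 55.03 lying 5.03 kb past the MECOM end and a shRRN3 peak of score 55.39 lying 5.79 kb past the PAX8 end.

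Peaks were found at both CpG-rich and CpG-poor starts among these genes. Starts were called CpG-rich when the 500 bases either side had at least 50% G and C and a ratio of observed to expected CpG of at least 0.6. Of all CpG-rich gene starts, 11.6% had a peak in shLacZ and 35.3% in shRRN3, and of the others 2.05% and 7.72%. SOX17, EMX2 and WT1 had CpG-rich starts, with ratios of 0.85, 0.73 and 0.68, and SOX17 alone had a peak. PAX8 had a peak in both libraries at a start with a ratio of 0.38. MSLN, MUC16 and FOLR1 had ratios of 0.38, 0.31 and 0.07. At MECOM the ratio was 0.45 at the long start and 0.92 at the short start, where G and C made up 49.4%.

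Other genes of the lineage and markers of related tissues were examined as lists. Their counts stand beside the shares of all protein-coding genes. At the gene start these were 7.56% in shLacZ and 23.7% in shRRN3, and in the window 14.5% and 39.0%. The start used for these lists is the outer end of the annotated gene span. Of 12 further genes of Müllerian duct development, among them PAX2, LHX1, HOXA9 to HOXA11, HOXA13 and WNT4, 0 had a peak at that start in either library. Of these, WNT7A, AMHR2 and NR2F2 had 1 peak each elsewhere in the window, in shRRN3 alone, with scores of 61.72, 73.88 and 132.4. The NR2F2 peak lay 4.80 kb past the outer end of the span of that nuclear receptor gene. Other transcript starts were not examined here, so whether this peak lay at one is not known. The AMHR2 peak lay upstream, at −2.21 kb from the start of that receptor gene for anti-Müllerian hormone. The receptors for estrogen and progesterone (ESR1 and PGR) had 0 peaks in either library.

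Of 10 further surface or secreted ovarian markers, CDH6 had a start peak in shLacZ (score 79.03), and EPCAM and SPP1 had one in shRRN3 (scores 62.98 and 113.14). CDH6, a cadherin, also had a shRRN3 peak of score 67.91, centred 1.44 kb past its start and so outside the limit of 1 kb. WFDC2, which encodes the antigen HE4, had none, nor did CLDN3, CLDN4, SLC34A2, KLK6, KLK7 or LCN2. AMACR, 1 of 2 genes used as markers of clear cell carcinoma, had a start peak in both libraries, with scores of 84.25 in shLacZ and 325.68 in shRRN3. NAPSA had 0. Of 5 genes of simple epithelium, 0 had a peak in shLacZ and 3 had one in shRRN3, beside 14.5% and 39.0% of all protein-coding genes. The keratin genes KRT8 and KRT18 shared a peak of score 120.86 in shRRN3 that met the start rule for both. It lay inside KRT18, 0.95 kb past the KRT18 start, where the outer end of the KRT8 span overlaps KRT18. It therefore cannot be assigned to one or the other. KRT7 had a peak of score 74.51 at 11.55 kb past its start. KRT19 and CDH1 had 0 in both libraries.

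Among markers of other cell types, 0 of 4 ciliated-cell genes had a peak, and in shLacZ 0 of 4 mesothelial, 0 of 5 stromal or granulosa and 0 of 5 blood and vessel genes had one. In shRRN3, 1 gene of each of the last 3 lists had a peak, which were LRRN4 (score 59.5), AMH (score 74.43, 0.77 kb past its start) and PECAM1 (score 51.8). Over all 49 of these further markers, 2 had a start peak in shLacZ and 6 in shRRN3, with the peak shared by KRT8 and KRT18 counted for both. This stands beside 7.56% and 23.7% of all protein-coding genes. In the wider window 2 and 13 of the 49 had a peak, beside 14.5% and 39.0%. The 8 broadly used genes, from GAPDH to PPIA, all had a peak in the window in both libraries. Start peaks were found at 4 of these 8 in shLacZ and 3 in shRRN3. In shLacZ the highest-scoring peaks of ACTB and EEF1A1 were centred 37.23 kb and 4.67 kb from the outer end of the gene span. The start used for all these lists is the outer end of the annotated gene span. Peaks at other transcript starts were not counted for them, so the start counts can miss promoter peaks.

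**Figure D5:**
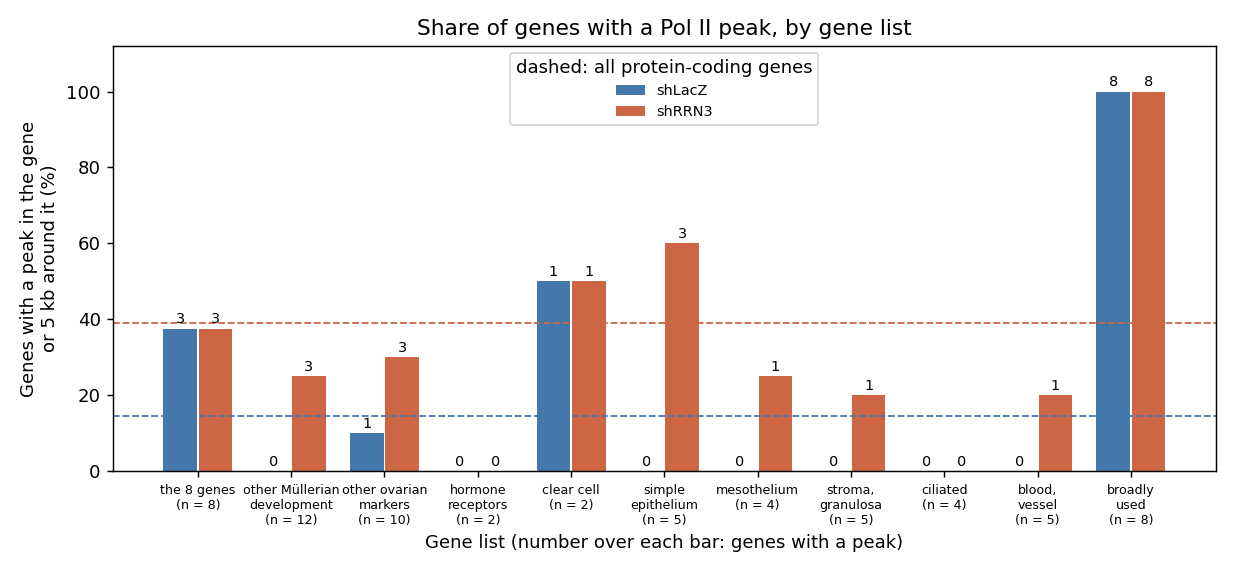
Share of genes (y axis, %) with a Pol II peak in the gene or 5 kb around it, for each gene list (x axis, with its number of genes) and each of the 2 libraries. Numbers over the bars are genes with a peak, and dashed lines are the shares of all protein-coding genes (14.5% and 39.0%). The 8 lineage and ovarian genes stand at 3 in both libraries, the broadly used genes at 8, and most lists of other tissues at 0 or 1.

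A gene with no peak has no site past the authors' threshold in that library, which does not show that it is not transcribed, and a peak shows Pol II at a place and not the amount of messenger RNA.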

How the data were processed

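The Pol II libraries of shLacZ and shRRN3 cells were used, with 1 library per hairpin, and the 2 inputs were not used here. The authors called peaks in each library, as the peak names (MACS) show, and deposited 0-based coordinates in bases and a score for each peak. The deposited score was taken as 10 times −log10 of the p-value, from its lowest values. The aligner, the MACS version, the calling threshold and whether the input served as control are not given in the sources used here. The build in the submitters' processing notes is hg38, the sequence names are GRCh38 accessions, and 0 peaks ran past a chromosome end. Peak lists hold no read counts, so depth is unknown.

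Peaks were assigned to GENCODE 44 genes by 1 bp of overlap with the span and 5 kb around it, and to starts by a midpoint within 1 kb. The members, lists and named genes (the 8 genes, genes overlapping or nearest to their peaks, and start peaks of the further lists) were chosen with earlier results of these data known. Of the genes in the further lists, 2 are not reported here. Sequences came from hg38 and from RefSeq promoter windows (GRCh38.p14). The search code was checked on simulated peaks planted inside the limit of 1 kb, and 200 of 200 were recovered. This checks the code alone and not how well start peaks are detected in real data. Python 3.11.15, numpy 2.4.6 and matplotlib 3.10.9 were used. Alternatives were other windows, score limits and overlap rules.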

Additional observations from a re-analysis of the deposited data

How the results depend on the processing

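Of 59 alternative values for 12 results, 43 stayed within the limits set and 16 moved beyond them. The limits were 1.5 times for a count and the exact binomial interval for a share. The count of genes with a peak was 3 in shLacZ under all alternatives, RefSeq spans included (a choice made after seeing the data), and in shRRN3 it was 4 with 20 kb flanks, through MUC16, and 2 with that list reduced to its 3920 highest-scoring peaks, where SOX17 dropped out. That reduction left 6 peaks in the windows in place of 27, 1 start peak (PAX8) in place of 2, and 1 overlapped peak in each library in place of 4. With scores at or above the shLacZ median, the windows held 3 peaks in shLacZ and 15 in shRRN3, and the peaks at the short MECOM start were lost in both. Flanks of 20 kb took the shLacZ number from 5 to 10, through peaks past MECOM. The share of protein-coding genes with a peak was, in shLacZ and shRRN3, 11.8% and 33.8% with no flank, 13.4% and 36.9% with 2 kb, 19.1% and 47.5% with 20 kb, 8.09% and 30.0% with the score limit, and 16.9% in the reduced shRRN3 list. No paired analysis was possible because each hairpin had 1 library. Peak numbers are small, the depth is unknown, and an absent peak is limited by the threshold of each list.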
